A study of Mus musculus with 4 samples.

Results

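Genes for developmental transcription factors were taken as the protein-coding genes whose symbols start with Hox, Pax, Gata, Tbx (without Tbx3), Lhx, Nkx, Irx, Dlx, Msx, Meis, Neurog or Neurod followed by a digit, with the sine oculis-related genes (Six2 and its paralogues). Here Hox stood for the Hoxa to Hoxd clusters. The annotation held 119 such genes in 13 families. Their E2F1 peaks were those that overlapped the window from 1000 bp upstream to 500 bp downstream of any of their transcript starts, and 14 genes had such a peak, with 14 peaks out of 3989 promoter peaks and 4523 peaks in all. The rule uses gene symbols and positions and no measured value, but it was set with earlier results of these data known. E2F1 occupancy had been measured by ChIP-seq, which sequences the DNA that an antibody pulls down from fixed chromatin, in serum ESCs and 2i ESCs, with 2 biological replicates each. Serum ESCs were mouse embryonic stem cells kept in serum medium with LIF. The 2i ESCs were kept in serum-free Ndiff medium with LIF, the MEK inhibitor PD0325901 and the GSK3 inhibitor CHIR99021. The labels name neither the ESC line nor a genotype, and with 2 samples per condition the p-values measure the spread between these 4 samples only. The values are normalized counts, which are reads over a peak divided by 1 factor per sample, from 248878 to 710519 reads in peaks per sample. A single read was worth a normalized count of 1.74 and 0.953 in the first and second serum sample and of 0.560 and 1.04 in the 2i samples, which made serum replicate 1 the shallowest. Values of a condition are given in the order of replicates 1 and 2 throughout.

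Homeobox, T-box, paired-box, GATA and basic helix-loop-helix factors bind DNA at enhancers and promoters and set cell fate and position in the embryo. Hox genes lie in 4 clusters in which the order of genes follows the head-to-tail order of the body regions they pattern. In ESCs most of these genes are silent or barely transcribed, and their CpG-rich promoters are well-known targets of Polycomb repressive complexes. E2F1 activates genes for S-phase entry and is restrained by the RB family, and its textbook targets are cell-cycle genes.

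A promoter peak was present at 11.8% of the developmental genes (95% Clopper-Pearson interval over genes from 6.58% to 19.0%), against 4213 of 22119 other protein-coding genes (19.0%, interval from 18.5% to 19.6%). The intervals cover counting error only, and neighbouring Hox genes are not independent. The Hox family, with 7 of 39 genes (17.9%, interval from 7.54% to 33.5%), made up as many of the peaks as all other families together, which had 7 of 80 genes (8.75%). The Hox genes with a peak were Hoxa4, Hoxa13, Hoxb9, Hoxc13, Hoxd8, Hoxd11 and Hoxd13. Paralogue groups 9 to 13, which pattern the trunk, tail and limbs, had 5 of 16 genes with a peak, and groups 1 to 8 had 2 of 23. By cluster, 2 of 11 Hoxa genes, 1 of 10 Hoxb genes, 1 of 9 Hoxc genes and 3 of 9 Hoxd genes had a peak. The peaks outside Hox were at Tbx2 and Tbx15 (2 of 12 Tbx genes), Dlx4 (1 of 6), Irx2 (1 of 6), Six2 (1 of 6), Lhx8 (1 of 8) and Nkx6-2 (1 of 14). No peak lay in the window of any of 9 Pax, 6 Gata, 4 Neurod, 3 Neurog, 3 Meis or 3 Msx genes. With so few genes per family the intervals were wide, reaching 33.6% for Pax and 70.8% for Meis, Msx and Neurog.

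**Figure D1:**
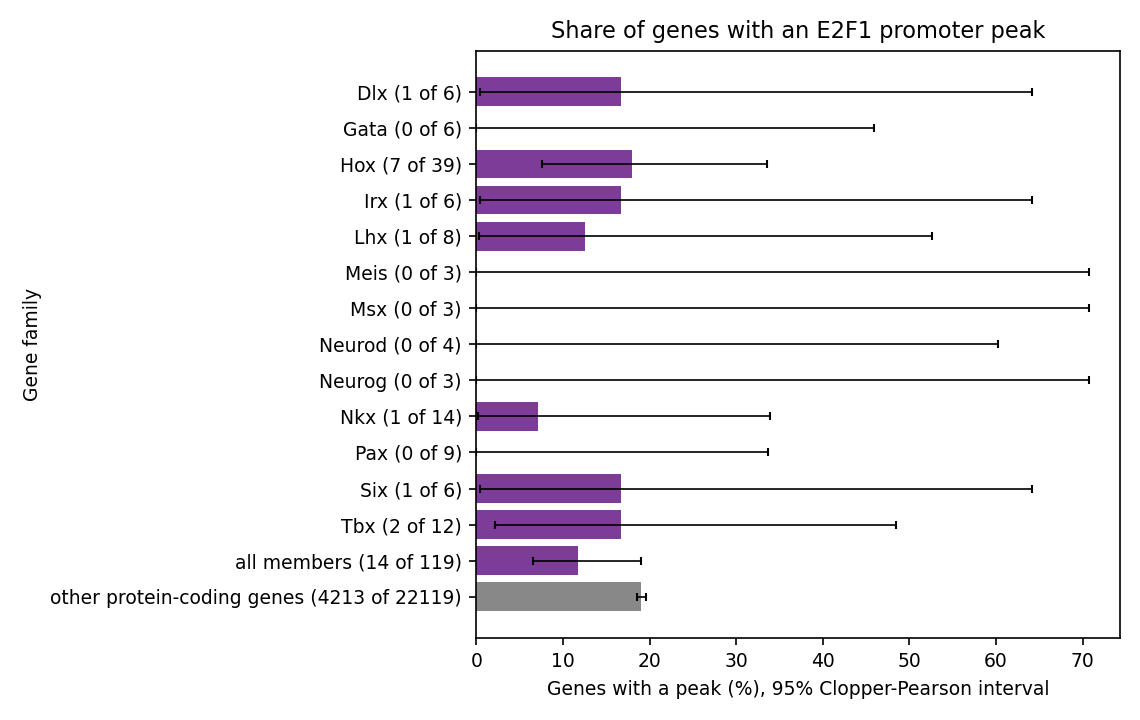
Share of protein-coding genes with an E2F1 peak between 1000 bp upstream and 500 bp downstream of a transcript start, by family, with bars for the share in percent and lines for 95% Clopper-Pearson intervals. The 119 developmental genes lay at 11.8%, under the 19.0% of other protein-coding genes, and 6 of the 13 families had no peak.

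The 105 developmental genes without a promoter peak were mostly more than 10000 bp from any E2F1 peak. The median distance from their starts to the nearest peak was 93654 bp, and 59 of them had a peak within 100000 bp, 11 within 10000 bp and 3 within 5000 bp. Those 3 were Irx5, Nkx2-3 and Hoxa3, with the nearest peak 1734 bp, 2107 bp and 2980 bp away. The peak next to Irx5, which overlaps the promoter window of 4933436C20Rik, held 33.1 and 49.6 in serum and 45.3 and 45.9 in 2i. The one near Nkx2-3 held 17.4 and 30.5 in serum and 26.3 and 80.3 in 2i, and the one near Hoxa3 held 20.9 and 67.7 in serum and 16.8 and 30.3 in 2i. Serum and 2i samples overlapped at all 3 peaks, and limma called none of them. These promoters were also poorer in CpG. In the 300 bp from 250 bp upstream to 50 bp downstream of the start, the median number of CpG per 100 bp was 5.0 at the 105 genes without a peak and 7.67 at the 14 genes with one. Among other protein-coding genes the same medians were 2.67 without and 9.33 with a peak.

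Sequences are shown for the peak with the highest signal per kb (Hoxb9), the only E2F motif of 8 letters in any of the 14 peaks (Hoxd8) and the promoter side of a peak that did not separate the conditions (Nkx6-2). All were read from the plus strand of mm9 (NCBIM37), with the deposited start taken as a 1-based position. The motifs searched on both strands were TTTGGCGC, TTTCGCGC, TTTCCCGC and TTTGCCGC, and the shorter core GCGGGA, which reads TCCCGC on the opposite strand and lies inside TTTCCCGC when that motif is read on the other strand. Capitals mark a match to either search. The Hoxb9 stretch at chr11:96133022-96133321 is coding sequence with no match, the Hoxd8 site at chr2:74542980-74543009 holds TTTCGCGC on the minus strand, and the Nkx6-2 stretch at chr7:146768697-146768944 lies upstream of that gene's first exon.
Hoxb9: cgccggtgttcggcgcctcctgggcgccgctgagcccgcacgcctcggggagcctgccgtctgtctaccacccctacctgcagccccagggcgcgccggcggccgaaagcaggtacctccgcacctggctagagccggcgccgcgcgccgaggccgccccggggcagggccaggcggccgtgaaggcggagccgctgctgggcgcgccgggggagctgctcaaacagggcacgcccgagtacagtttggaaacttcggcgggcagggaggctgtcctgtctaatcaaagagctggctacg
Hoxd8 site: gcagtggcgggGCGCGAAAatgcctcgccg
Nkx6-2: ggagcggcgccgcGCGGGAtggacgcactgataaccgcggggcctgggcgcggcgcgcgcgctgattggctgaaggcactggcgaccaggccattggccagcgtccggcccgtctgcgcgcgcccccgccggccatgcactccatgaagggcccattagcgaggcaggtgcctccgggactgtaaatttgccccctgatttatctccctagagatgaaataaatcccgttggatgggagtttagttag

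The 14 peaks were rich in GC and CpG, and Hoxb9 (66.0% GC) and Nkx6-2 (69.3%) were among those with the lowest GC content. The median GC content of the 14 was 76.5% (66.0% to 79.9%) and the median CpG density 14.1 per 100 bp (9.94 to 17.6), against 74.8% and 13.1 at the 3975 other promoter peaks. None of the 14 held an 8-letter motif in the 300 bp around its centre, where 141 of the other promoter peaks did (3.55%). Over whole peaks, 1 of 14 held it, at Hoxd8, at -457 bp from the peak centre on the plus strand, and 264 of the other promoter peaks did (6.64%). In the 300 bp around the start used above, 2.73% of all 22220 promoters of protein-coding genes held the motif. The 6-letter core, which was chosen after the data had been seen, was present near the centre of 9 of 14 peaks (64.3%) and of 59.0% of other promoter peaks. A match is a string of letters and not a measured binding site.

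The peaks lay on the gene side of the starts. The peak centre was at or downstream of the nearest start in 13 of 14 peaks (92.9%), against 69.1% of other promoter peaks, and only the Hoxa4 peak was centred upstream, by 4 bp. The median distance was 84 bp into the gene, against 54 bp. The farthest were Tbx2 at 539 bp, Hoxb9 at 335 bp and Hoxd11 at 323 bp. By the annotation, 9 centres fell in a UTR and 5 in coding sequence, at Hoxa13, Hoxb9, Hoxc13, Hoxd11 and Hoxd13.

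E2F1 signal at these promoters was low. The median of the mean normalized count over 4 samples was 35 (20.5 at Hoxd11 to 99.4 at Hoxd8), against 65.3 at other promoter peaks. Per kb of peak length, the scale on which peaks of different lengths can be compared, the median was 70.7 (55.8 at Lhx8 to 147 at Hoxb9) against 128, and 13 of 14 peaks were under the median of all promoter peaks. The exception was Hoxb9, followed by Irx2 at 124 and Nkx6-2 at 122 normalized counts per kb. When all promoter peaks were divided by mean count into 4 equal classes, 7 of the 14 were in the weakest class and 0 in the strongest. Sample by sample, the median over the 14 peaks was 24.4 and 46.2 in serum and 34.4 and 44.9 in 2i. The lowest and the highest of these medians both came from serum ESCs, so the conditions overlapped.

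**Figure D2:**
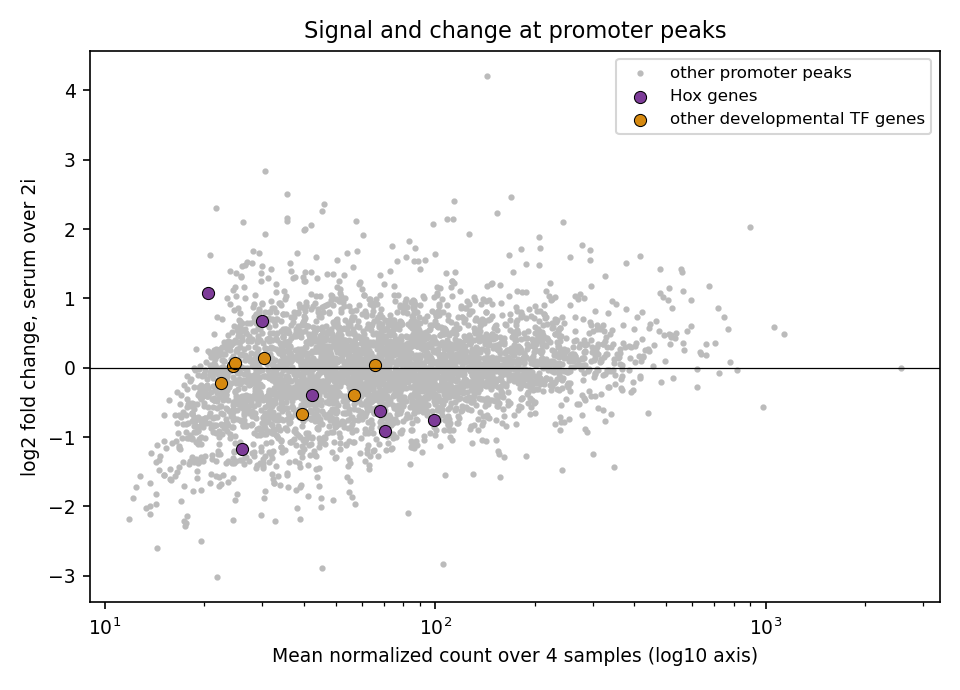
Mean normalized count over 4 samples (log10 axis) against the log2 fold change of serum over 2i for each promoter peak, with Hox genes in purple, the other developmental genes in orange and other promoter peaks in grey. The 14 peaks sit between means of 20.5 and 99.4, in the left and middle of the cloud, where grey points also spread widest.

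The change between serum and 2i ESCs was tested with limma on the log2 scale, where 1 was added to each normalized count. Calls needed both an unadjusted p under 0.05 and a log2 fold change larger than 1 in size. Of the 14 peaks, 1 was called (7.14%), at Hoxc13, and it was higher in 2i. Over all 4523 peaks 10.3% were called, with 4.82% toward serum and 5.48% toward 2i, and among the 3975 other promoter peaks 373 were called (9.38%), so the share at developmental genes was near the background. After Benjamini-Hochberg adjustment over all peaks in limma, 0 of 14 passed, against 1.46% of all peaks (66 peaks), and at an unadjusted p under 0.05 there were 2 of 14, at Hoxc13 and Hoxb9, against 807 of all 4523. Serum and 2i samples were fully separated at 6 of 14 peaks (42.9%), against 49.3% of all peaks, with 2i above serum at Hoxb9, Hoxc13, Irx2 and Tbx2 and serum above 2i at Hoxd11 and Hoxd13. No exact permutation test of 2 samples against 2 can give a 2-sided p under 0.333. The median log2 fold change of serum over 2i was -0.30 (middle 50% from -0.65 to 0.06), against -0.05 (-0.40 to 0.30) at other promoter peaks, and 8 of 14 were negative (57.1%) against 53.7%. Low signal moved with this median, since the weakest class of promoter peaks, which held 7 of the 14, also had a median of -0.30 and the strongest had 0.10, and its part in the result was not tested. The 5 developmental peaks with a mean of at least 50 over the 4 samples had a median of -0.63, against 0.03 at other promoter peaks, but Hoxb9 and Irx2 reached that mean only through 2i and were under 50 in serum, so this median supports no reading either way. The median depended on single libraries, running from -0.64 without serum replicate 2 and -0.61 without 2i replicate 1 to -0.22 without serum replicate 1 and 0.10 without 2i replicate 2. After rescaling to the same total 11 of 14 peaks were negative, and after cyclic loess normalization 7 were. The rescaling moved the median over all peaks by -0.089. The median of the 14 less that of other promoter peaks was -0.25 both before and after it, and -0.12 after cyclic loess.

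**Figure D3:**
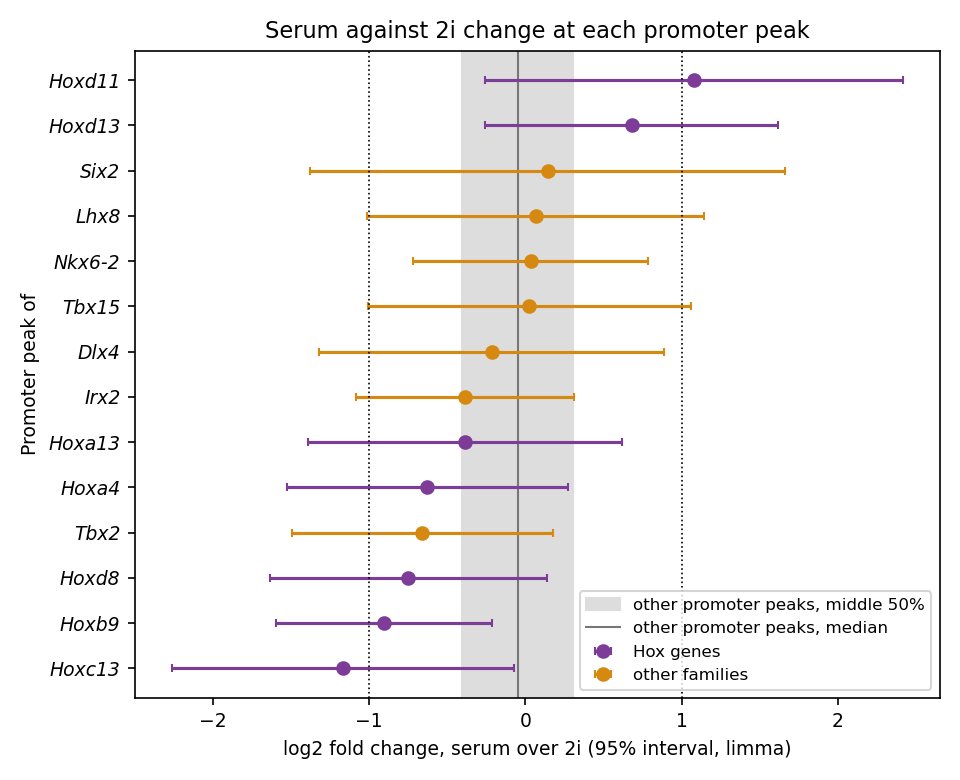
Log2 fold change of serum over 2i at the 14 promoter peaks with 95% intervals from limma, the grey band giving the middle 50% of other promoter peaks and the dotted lines the threshold of 1 in each direction. Only the intervals of Hoxc13 and Hoxb9 exclude 0, and those of 12 peaks include it.

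Hoxc13, a posterior Hox gene needed for hair and nail formation, had the peak with the largest change. Its normalized count was 10.5 and 21.9 in serum ESCs and 30.8 and 40.7 in 2i ESCs. Both 2i samples were above both serum samples, with 16.2 ± 8.11 in serum against 35.7 ± 6.99 in 2i (SD, n = 2 each). The log2 fold change was -1.17 (standard error 0.50, 95% interval from -2.26 to -0.07, limma adjusted p = 0.251), and the unadjusted p was under 0.05. The counts behind it were small, with 6 and 23 reads in serum and 55 and 39 in 2i. The call was lost without serum replicate 1 (log2 fold change -0.67), without 2i replicate 1 (-1.36) and without 2i replicate 2 (-0.97), and it held without serum replicate 2 (-1.67). The peak also overlaps the promoter window of Gm17649, which starts 283 bp away on the opposite strand, so the signal cannot be assigned to Hoxc13 alone.

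Hoxb9, which patterns the thoracic skeleton with its paralogues, had the smallest unadjusted p. Its peak (chr11:96132933-96133412) held 48.8 and 47.7 in serum and 76.7 and 108 in 2i. The serum samples nearly coincided (48.2 ± 0.795, SD, n = 2) and both lay under the 2i samples (92.6 ± 22.5, SD, n = 2). The log2 fold change of -0.91 (standard error 0.31, interval from -1.60 to -0.21, limma adjusted p = 0.169) stayed short of 1. Without 2i replicate 1 it was -1.15 and the peak was called, and without 2i replicate 2 it was -0.66 with an unadjusted p over 0.05.

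The Hoxd cluster, which patterns limbs and the posterior trunk, held 3 peaks whose values went in different directions. At Hoxd13, the last gene of the cluster and one needed for digits, the normalized count was 41.8 and 32.4 in serum and 19.6 and 26.1 in 2i (chr2:74506159-74506586). Both serum samples were higher, and the log2 fold change was 0.68 (standard error 0.43, interval from -0.26 to 1.62, limma adjusted p = 0.429). At Hoxd11, which acts in the forearm and the kidney, the values were 13.9 and 44.8 in serum and 9.52 and 13.6 in 2i. Serum was above 2i here only by the distance of 13.9 from 13.6, and the high value was that of serum replicate 2. Its log2 fold change of 1.08 (standard error 0.61, interval from -0.26 to 2.42, limma adjusted p = 0.377) was not called. It was 1.89 and called without serum replicate 1, and 0.27 without serum replicate 2. At Hoxd8, a trunk Hox gene with the longest peak (1087 bp), the values were 48.8 and 99.1 in serum and 82.9 and 167 in 2i. The conditions overlapped, and the log2 fold change was -0.75 (standard error 0.40, limma adjusted p = 0.354), which became -1.25 and a call without serum replicate 2 and without 2i replicate 1. Without serum replicate 1 or 2i replicate 2 it was near -0.25 and not called.

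**Figure D4:**
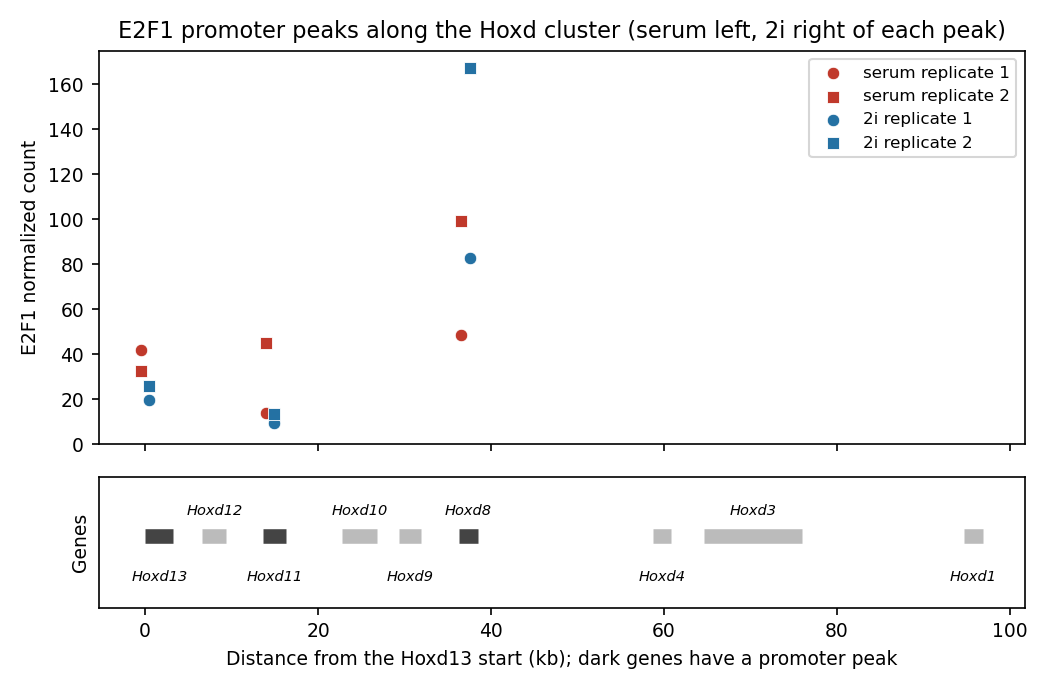
E2F1 normalized counts of each sample at the 3 promoter peaks of the Hoxd cluster, against distance from the Hoxd13 start in kb, with serum in red and 2i in blue, circles for replicate 1 and squares for replicate 2, and the genes drawn below. Serum samples lie above 2i samples at Hoxd13 and Hoxd11, and at Hoxd8 the highest value is 167 in 2i replicate 2.

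Within a sample, a ratio of these peaks does not depend on the scaling factor of that sample. The Hoxd13 count relative to that of Hoxd8, 37.1 kb away, was 0.857 and 0.327 in serum and 0.236 and 0.156 in 2i. The Hoxd11 count relative to that of Hoxd8 was 0.286 and 0.452 in serum and 0.115 and 0.0813 in 2i. Both ratios were higher in both serum samples, but they were chosen after the values had been seen and carry no test. In the Hoxa cluster the Hoxa13 count relative to that of Hoxa4, 69.0 kb away, was 0.565 and 0.848 in serum and 0.723 and 0.477 in 2i, and the conditions overlapped.

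At Hoxa4, which acts in the neck region of the axial skeleton, the peak held 40.1 and 62.9 in serum and 52.6 and 116 in 2i (log2 fold change -0.63, standard error 0.41, limma adjusted p = 0.448). Without 2i replicate 1 this was -1.19 and called, and it shrank to -0.31 without serum replicate 1 and to -0.066 without 2i replicate 2. At Hoxa13, which acts in digits and the genital tract, it held 22.6 and 53.4 in serum and 38.1 and 55.3 in 2i (log2 fold change -0.39, standard error 0.46, limma adjusted p = 0.713). Values of serum and 2i overlapped at both genes. Over the 7 Hox peaks the median log2 fold change was -0.63, with 5 negative, and over the 7 other peaks it was 0.02. No test was made of that difference, and the Hox values depended on single libraries. Without serum replicate 2 the log2 fold changes at Hoxd8, Hoxa13 and Hoxa4 were -1.25, -0.99 and -0.95. Without 2i replicate 2 they were -0.25, -0.12 and -0.066.

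**Figure D5:**
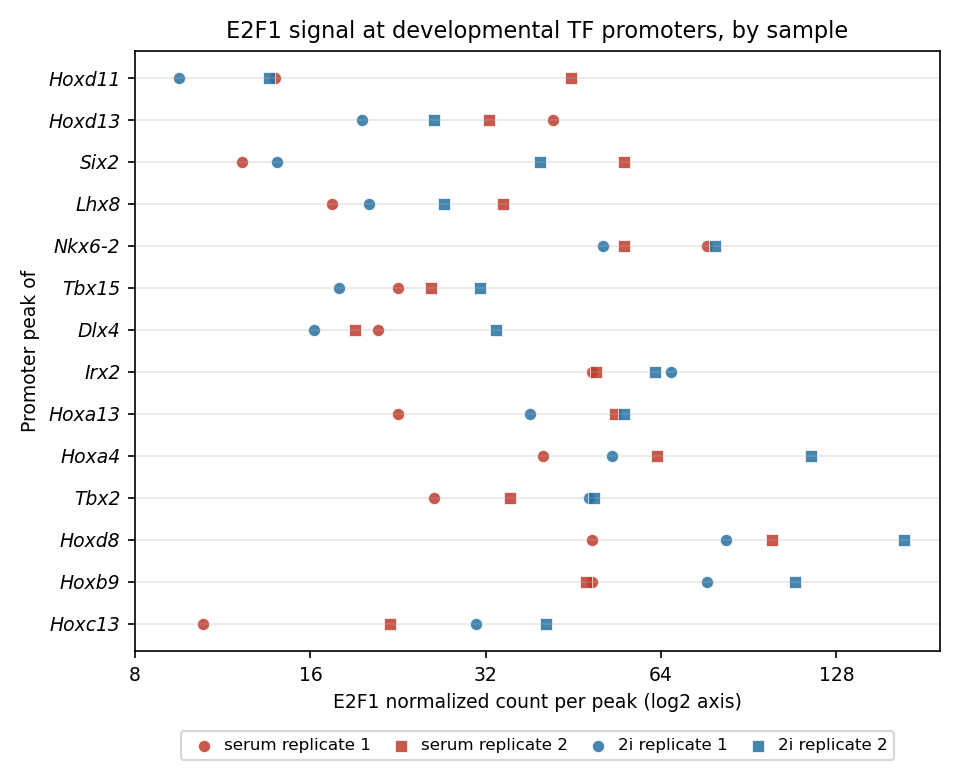
Normalized count (log2 axis) of each of the 4 samples at each of the 14 promoter peaks, ordered by fold change, with serum in red and 2i in blue, circles for replicate 1 and squares for replicate 2. The colours separate fully at Hoxd11, Hoxd13, Irx2, Tbx2, Hoxb9 and Hoxc13, and squares lie to the right of circles at most other peaks.

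Among the T-box genes, Tbx2, a repressor in heart and limb development, had 26.1 and 35.3 in serum and 48.1 and 49 in 2i (chr11:85646304-85646880). The 2i samples were higher without overlap, and the log2 fold change was -0.66 (standard error 0.38, interval from -1.50 to 0.17, limma adjusted p = 0.384). Tbx15, which acts in skeleton and skin patterning, had 22.6 and 25.7 in serum, between the 2i values of 17.9 and 31.3. Its log2 fold change was 0.02 (standard error 0.47).

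The homeobox genes outside Hox showed little separation. Irx2, an Iroquois gene of neural and heart patterning, had 48.8 and 49.6 in serum and 66.6 and 62.6 in 2i (chr13:72766209-72766669). The replicates were close and the 2i samples higher, with a log2 fold change of -0.39 (standard error 0.32, interval from -1.08 to 0.31, limma adjusted p = 0.572). Nkx6-2, a ventral neural tube and oligodendrocyte factor, had 76.7 and 55.3 in serum and 50.9 and 79.3 in 2i (chr7:146768407-146768944). The samples interleaved, and the log2 fold change of 0.03 (standard error 0.34) had an interval from -0.72 to 0.79. Six2, which maintains nephron progenitors, had 12.2 and 55.3 in serum and 14.0 and 39.6 in 2i. Replicate 2 was far above replicate 1 in both conditions, and the log2 fold change was 0.14 (standard error 0.69). Lhx8, a factor of forebrain cholinergic neurons and oocytes, had 17.4 and 34.3 in serum and 20.2 and 27.1 in 2i (log2 fold change 0.06, standard error 0.49). Dlx4, a distal-less gene, had 20.9 and 19.1 in serum and 16.2 and 33.4 in 2i (log2 fold change -0.22, standard error 0.50). At these 2 genes as well the conditions overlapped.

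The replicates differed more at these peaks than at other promoter peaks, whose median signal was higher (65.3 against 35). The median absolute log2 difference between replicates was 0.55 in serum and 0.51 in 2i, against 0.34 and 0.32 at other promoter peaks. The second replicate was the higher at 10 of 14 peaks in serum and at 13 of 14 in 2i, where the shares among other promoter peaks were 49.8% and 48.5%. The median standard error of the log2 fold change was 0.44, against 0.34. Peaks outside the promoter window had a median signal of 44.9, replicate differences of 0.42 in serum and 0.39 in 2i and a median standard error of 0.40. Whether low signal accounts for the spread was not tested. The part of this replicate difference in the changes given above was not tested.

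Partners and regulators of these families were counted in the same fit, from 7 lists of genes that were also drawn up with earlier results known. Their counts stand beside 19.0% of protein-coding genes outside the 13 families with a peak and 10.3% of all peaks called. Of 6 cofactors that bind DNA with Hox proteins, 2 had a peak, Pbx3 and Pknox1, with log2 fold changes of 0.14 and -0.08, and neither was called. Of 17 other cofactors, 7 had a peak and 1 was called. This was Tle4, a Groucho corepressor, with 458 and 439 in serum and 109 and 174 in 2i (log2 fold change 1.70, standard error 0.28, limma adjusted p = 0.0173). Of the 4 Id genes, whose products block helix-loop-helix factors, only Id4 had peaks, 2 of them, and neither was called.

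Genes for Polycomb proteins had a peak at 22 of 30 promoters (73.3%, interval from 54.1% to 87.7%), beside the 19.0% of protein-coding genes outside the 13 families. Of their 26 peaks, 4 were called with the higher values in serum, where 4.82% of all peaks were, and the median log2 fold change was -0.06. At Phc1, a subunit of Polycomb repressive complex 1, the values were 903 and 2020 in serum and 357 and 306 in 2i (log2 fold change 2.03, limma adjusted p = 0.0308). Pcgf3 (1.05), the chromodomain gene Cbx7 (1.03) and the complex 2 cofactor Jarid2 (1.01) were also called higher in serum, with limma adjusted p from 0.0786 to 0.175. When single replicates were left out, each of these 3 calls was lost in 2 of 4 fits, without serum replicate 1 or 2i replicate 2 for Pcgf3 and Cbx7 and without serum replicate 2 or 2i replicate 1 for Jarid2. All 3 were also lost when all samples were rescaled to the same total, at log2 fold changes of 0.97, 0.94 and 0.92 for Pcgf3, Cbx7 and Jarid2. With 8 added to each count in place of 1 they were lost at 0.94, 0.97 and 0.98. After cyclic loess normalization Cbx7 (0.99) and Jarid2 (0.81) were lost and Pcgf3 (1.06) was kept. Of 11 annotated Trithorax and H3K27 demethylase genes, 7 had a peak, 0 were called and 0 had an unadjusted limma p under 0.05.

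Other developmental regulators had promoter peaks at shares close to the 19.0% of protein-coding genes outside the 13 families, and their log2 fold changes ran from -2.84 to 2.46, against -1.17 to 1.08 at the 14 peaks. Among 74 other homeobox genes, 13 had a peak (17.6%, interval from 9.70% to 28.2%), and 4 of 14 peaks were called, against 10.3% of all peaks. Pou3f1, a POU factor of neural fate, had 138 and 234 in serum and 50.4 and 31.3 in 2i (log2 fold change 2.15, limma adjusted p = 0.0173). Cdx1, a caudal-type gene that acts upstream of Hox genes, had 19.2 and 29.5 in serum and 125 and 248 in 2i (log2 fold change -2.84, limma adjusted p = 0.00867). Barx1 (1.48) and Lbx1 (1.69) were called higher in serum without passing adjustment (limma adjusted p = 0.146 and 0.0963), and the Barx1 call was lost without 2i replicate 1. Among 108 annotated genes of other families, 20 had a peak (18.5%, interval from 11.7% to 27.1%), and 4 of 21 peaks were called, against the same 10.3%. Tcf15, a helix-loop-helix factor of somite development, had 348 and 226 in serum and 60.5 and 41.7 in 2i (log2 fold change 2.46, limma adjusted p = 0.00597). Foxp1 (1.94) was called higher in serum, and Eomes (-1.32) and 1 of the 2 Hes1 peaks (-1.24) higher in 2i, with limma adjusted p of 0.0625, 0.244 and 0.0600. The size of the Foxp1 change depended on the serum replicate, with serum values of 99.3 and 316 against 45.3 and 45.9 in 2i. It was called with any replicate left out, at a log2 fold change of 1.11 without serum replicate 2 and 2.77 without serum replicate 1. The Eomes call was lost without serum replicate 1 and without either 2i replicate, and the Hes1 call without serum replicate 2. Eomes had 6.97 and 14.3 in serum and 33.6 and 20.9 in 2i, and 3 reads in serum replicate 1 were worth 5.23. Its call was also lost with 8 added to each count in place of 1 (-0.92) and after cyclic loess normalization (-0.73). The peaks of Tle4, Phc1, Pou3f1, Cdx1 and Tcf15 met the calling rule in every alternative that was run. Their limma adjusted p, however, was over 0.05 with eBayes without a trend (0.0623 to 0.0872) and without serum replicate 1 (0.0871 to 0.134). It was also over 0.05 without serum replicate 2 at Tle4, Phc1 and Pou3f1, without 2i replicate 1 at Tle4 and Phc1, without 2i replicate 2 at Phc1, Pou3f1 and Cdx1, and after cyclic loess normalization at Phc1 (0.0505).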

How the data were processed

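E2F1 ChIP-seq was performed on 2 serum and 2 2i ESC samples. According to the methods and processing notes, reads were aligned to mm9 with BWA, peaks were called per sample with MACS2 and intersected between replicates, and reads were counted over the merged peaks with bedtools. The authors deposited a signal per peak and sample, named normalized counts. Of these values, 99.95% (18083 of 18092) were whole reads within 0.05 reads once divided by 1 factor per sample, and 9 serum values were exactly 2. Raw counts were not used here. A site had to be found in both replicates of a condition to be kept, so weak sites are under-represented.

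Tests used limma 3.58.1 in R 4.3.3 on log2(value + 1), with eBayes and a trend, all 4 samples and all 4523 peaks, and Benjamini-Hochberg adjustment over all peaks. The threshold of 1 on the log2 scale with p under 0.05 follows the methods. The fit was tested on simulated data. Promoters came from GENCODE M1 on NCBIM37, sequences from the same genome, with Python 3.11.15, pandas 2.3.3, scipy 1.17.1 and pysam 0.24.0. The 14 peaks on unplaced contigs had no annotation. The level of 3 reads, a floor for detection, lay between 1.68 and 5.23 normalized counts across samples.

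Every developmental gene with a peak was named. Full values were given for called peaks, for the 3 largest changes in each direction without overlap between conditions and for the 3 highest levels per kb, and in the 7 gene lists (Hox cofactors, other cofactors, Id genes, Polycomb, Trithorax and demethylases, other homeobox genes, other developmental factors) called peaks were named, except an item that is not reported here. The genes and lists were chosen with earlier results of these data known. The alternatives are described with the limits.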

Additional observations from a re-analysis of the deposited data

How the results depend on the processing

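The count of called developmental peaks was 1 and fell to 0 with a pseudocount of 8, with a minimum mean of 50 (5 peaks tested), without the Hox genes (7 peaks) and without peaks shared with another gene (13 peaks), and lay between 0 and 3 when each replicate was left out in turn, where the lone sample of a condition was assumed to vary like the other condition. Under cyclic loess normalization Hoxd11 (1.64) was called and Hoxc13 (-0.86) was not. Over all peaks 466 were called, 188 with a minimum mean of 50 and 378 to 674 with each replicate left out. After adjustment 66 peaks passed, 0 with eBayes without a trend (479 called at unadjusted p), 0 to 33 with each replicate left out (0 without serum replicate 1, 422 called) and 60 to 81 under the other settings but the block, with 0 at developmental genes in each. The split of 218 higher in serum and 248 higher in 2i became 178 against 313 when totals were made equal and 232 against 166 with cyclic loess. The sign reversed at Tbx15 (-0.062), Lhx8 (-0.022) and Nkx6-2 (-0.055) after rescaling to the same total. That rescaling moved the median over all peaks by -0.089, which is more than the size of the main changes at these genes. At Dlx4 (0.15) the sign reversed after cyclic loess. With each replicate left out, signs also changed at Hoxa13 (-0.99 to 0.21), Nkx6-2 (-0.28 to 0.35), Tbx15 (-0.36 to 0.41), Lhx8 (-0.40 to 0.53), Six2 (-0.90 to 1.19) and Dlx4 (-0.71 to 0.28), and the median lay between -0.64 and 0.10. The cause was not tested.

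With replicate number as a block (replicate block), 504 peaks were called over all and 1 at a developmental gene, and 311 passed adjustment. Over all 4523 peaks the numbers gave no pairing, since deviations of same-numbered samples correlated at 0.0483. At the 14 developmental peaks, however, replicate 2 was the higher at 10 in serum and at 13 in 2i. Whether the numbers mark a shared difference at these peaks was not tested. The count of genes with a peak was 14 with starts of coding transcripts, 13 by peak centre and 15 within 2000 bp. Count tests with edgeR and DESeq2 were not run. In serum replicate 1, depth was 6 reads at Hoxc13, 7 at Six2 and 8 at Hoxd11.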
